A study of Arabidopsis thaliana with 28 samples.

Results

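Roots of wounded Arabidopsis thaliana in the first hour were set against roots of the same kind of plants a day later. The comparison used 8 of the 28 arrays of the series, chosen by their titles: the 6 arrays of roots taken 0.25, 0.5 and 1 h after wounding, with 2 arrays at each time, and the 2 arrays of roots taken at 24 h. All plants were Col-0 (stock code N1092), grown on Murashige and Skoog medium in 16 h days and punctured with pins at day 16, after 3 h of light. No group differed in genotype. Each array is an Affymetrix ATH1 GeneChip, which reads 1 signal per probe set, and the deposited signals were on a linear scale. The other 20 arrays were roots at 3, 6 and 12 h and shoots at all 7 times. The early harvests and the 24 h harvest fell at near the same hour of the day, and the 3 early times were pooled because single groups of 2 arrays have less power. Unwounded plants were not analysed here, the punctured organ is not named in the labels, and the 3 early times share the same 24 h arrays. Whether the 2 arrays of a group stem from separate cultures is not stated. The p-values therefore measure only how far these samples spread, and that spread may be technical.

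When a plant is wounded, calcium and electrical signals spread within minutes, and genes for transcription factors, calcium sensors and ubiquitin ligases are switched on fast and briefly. Jasmonate, a hormone made from plastid lipids, follows and turns on its own synthesis, its own breakdown and defence genes. Roots hold a second set of defences that stand ready before any wound: lectins of the jacalin family, the beta-glucosidases of endoplasmic reticulum (ER) bodies, and the secreted proteins of the root cap.

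The arrays showed the organ that their labels name. The root marker PYK10, the main beta-glucosidase of ER bodies, lay between 2803 and 3626 on the 8 root arrays and between 570.0 and 1635 on the 8 shoot arrays of the same times. The shoot marker PRK, the phosphoribulokinase of the Calvin cycle, lay between 17.5 and 43.1 in roots and between 3342 and 5271 in shoots. The 3-prime to 5-prime ratio of the actin control, a sign of RNA quality, ran from 2.03 to 2.96 in the first hour and from 2.06 to 2.21 at 24 h. Replicates correlated at 0.985 to 0.990 within the early root groups and at 0.971 within the 24 h roots, over the 16263 probe sets tested. The 2 root arrays of 24 h stood further apart by the count of probe sets that differed at least 2-fold between replicates. That count was 255 of 16263 at 24 h (1.57%), against 69 at 0.25 h, 14 at 0.5 h and 40 at 1 h, and 18, 198 and 75 at 3, 6 and 12 h. Values with a 24 h array left out are given below for many genes and lists, but not for all whose value moved. A value given without them is not thereby shown to hold. Where a root array is left out, its group keeps 1 array and has no spread of its own. Calls and adjusted p-values of such fits take their spread from the other groups. They do not measure how far arrays of that time vary.

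Few root transcripts passed the test of the first hour against 24 h. Of 16263 probe sets, 31 passed the test (0.191%, limma with Benjamini-Hochberg adjusted p under 0.05), 20 of them higher in the first hour (0.123%) and 11 lower (0.0676%). At an unadjusted p under 0.05 there were 1368 (8.41%). The median log2 change over all probe sets was -0.02, with a median SE of 0.14, both on the log2(signal + 10.7) scale used throughout. Among the 31, 13 changed at least 2-fold, 12 higher and 1 lower, 17 belong to 1 gene each, and the other 14 have no single gene in the annotation used here. All 6 early arrays lay on 1 side of both 24 h arrays for 23 of the 31, 15 above and 8 below. Over all probe sets the early arrays lay wholly above in 3.42% and wholly below in 5.93%.

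The count moved with the arrays and the fit used. Without 24 h replicate 1, 161 probe sets were called (0.99%), 97 higher (0.596%) and 64 lower (0.394%), and 16 of the 31 were among them. Without 24 h replicate 2 there were 39 (0.24%), 23 higher (0.141%) and 16 lower (0.0984%), and 9 of the 31 were among them. Only 4 of the 31 were called whichever 24 h array was left out: AT1G27620 and the probe sets 261480_at, 262427_s_at and 244940_at, the last 3 without a gene name here. With the 8 arrays alone as 2 groups of 6 and 2, none was called, the lowest adjusted p was 0.0637 and 1209 had an unadjusted p under 0.05.

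Among the 3 early times, the higher transcripts were mostly at their highest at 0.25 h. Of the 20, 16 had their highest early mean at 0.25 h, and 16 had their lowest at 1 h. The shares over all probe sets were not counted for these. In 16 of the 20 the 24 h mean was the lowest of the 7 root times, against 7.46% of all probe sets. The mean of 3, 6 and 12 h against 24 h was called in 1.75% of all probe sets, 0.867% higher and 0.879% lower. Of the 20, 7 were also higher there, and of the 11 lower ones, 6 were also lower. The 31 were picked by their distance from the same 24 h arrays. These counts, and that of the lowest 24 h means, were therefore favoured by the choice and support nothing. Taken singly against 24 h, 0.25 h gave 51 calls (0.314%; 0.228% higher and 0.0861% lower), 0.5 h gave 68 (0.418%; 0.154% higher and 0.264% lower) and 1 h gave 9 (0.0553%; 0.043% higher and 0.0123% lower). Of the 31, 19 were called at 0.25 h, 25 at 0.5 h and 5 at 1 h. The pooled difference is a mean over these 3 times, and the values below are given time by time.

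Among these, 2 jacalin-related lectins, carbohydrate-binding proteins of the root, were higher in the first hour. AT1G52050 read 485 and 438 at 0.25 h, 283 and 357 at 0.5 h and 182 and 158 at 1 h, against 155 and 80.1 at 24 h. All 6 early arrays lay above both 24 h arrays, the 1 h pair only just. Its mean was 317 ± 134 (SD, n = 6) in the first hour and 118 ± 53.3 (SD, n = 2) at 24 h, a log2 change of 1.30 ± 0.20 (SE, adjusted p = 0.00479). AT1G52060 read 626 and 715 at 0.25 h, 468 and 532 at 0.5 h and 249 and 173 at 1 h, against 218 and 88.7 at 24 h, so 1 early array lay between the 24 h arrays. Its log2 change was 1.49 ± 0.28 (SE, adjusted p = 0.0345). AT1G52070, their neighbour, did not pass, at 1.13 (95% interval 0.41 to 1.84, adjusted p = 0.277). It read 432 and 119 at 24 h, and its 1 h signals of 333 and 357 lay between these. The 3 lectins are close in sequence and stand side by side on chromosome 1, so their probe sets may read shared transcripts. Without 24 h replicate 1 the changes were 1.74 in AT1G52050 (adjusted p = 0.000352), 2.09 in AT1G52060 (0.000947) and 2.01 in AT1G52070 (0.00101), and without replicate 2 they were 0.87, 0.89 and 0.24, none called.

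No other member of the list of ER body proteins and root jacalins passed. Of its 7 measured members, 2 were higher and none lower, and the median log2 change was -0.01. PYK10 differed by -0.01 (95% interval -0.22 to 0.20). JAL22, a jacalin that binds PYK10, gave -0.56 (95% interval -0.85 to -0.26) and did not pass, with 437 to 606 in the first hour and 897 and 699 at 24 h. NAI1, the transcription factor of ER bodies, gave -0.16, and NAI2, a protein needed to form them, gave -0.29. Without 24 h replicate 1 NAI1 was 0.20 and the list median 0.20, and without replicate 2 they were -0.52 and 0.01.

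A second group of higher transcripts came from a small family annotated as late embryogenesis abundant (LEA) related proteins with a root cap domain. The family was gathered after its values had been seen, so its counts describe it and support nothing. All 6 measured members had positive changes, with a median of 0.85, and 3 passed. AT5G54370 read 247 and 237 at 0.25 h, 197 and 216 at 0.5 h and 134 and 121 at 1 h, against 99.0 and 60.4 at 24 h. AT5G60530 read 261 and 220 at 0.25 h, 244 and 265 at 0.5 h and 167 and 176 at 1 h, against 107 and 82.4 at 24 h. In both genes every early array lay above both 24 h arrays. The log2 changes were 1.15 ± 0.19 (SE, adjusted p = 0.00948) for AT5G54370 and 1.13 ± 0.20 (SE, adjusted p = 0.0169) for AT5G60530.

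AT3G19430, of the same family, fell within the hour. It read 106 and 101 at 0.25 h, 60.4 and 81.9 at 0.5 h and 33.0 and 20.0 at 1 h, against 24.6 and 17.5 at 24 h. The 1 h pair overlapped with the 24 h pair, and the pooled change of 1.14 ± 0.17 (SE, adjusted p = 0.00257) therefore came from 0.25 and 0.5 h. At 3 and 6 h its signals stayed between 16.1 and 20.6, and at 12 h they were 75.3 and 92.8. The members that did not pass were AT4G27400 at 0.57, AT1G54890 at 0.14 and AT5G60520, the neighbour of AT5G60530, at 0.09. Without 24 h replicate 2, no member was called and the median was 0.65, and without replicate 1 the same 3 were called with a median of 0.99.

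**Figure D1:**
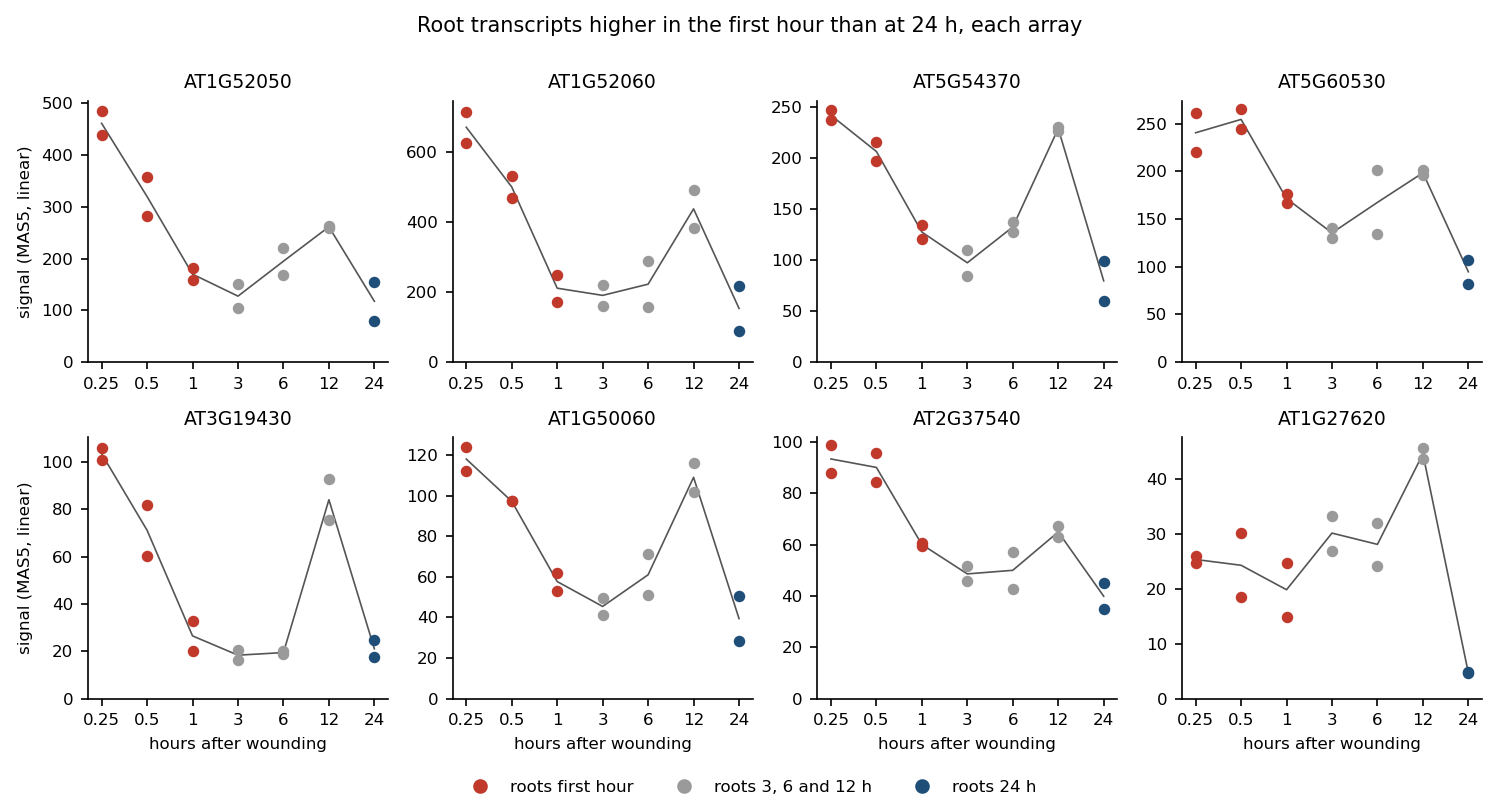
Signal (linear, from 0) of 8 transcripts called higher in the first hour, on each root array over the 7 times after wounding; the line joins the means of 2 arrays. In 7 of the 8 panels the points step down between 0.5 and 1 h and stand higher again at 12 h, while AT1G27620 is low at 24 h only, at 4.77 and 4.57.

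The remaining named genes that were higher differ in kind. AT1G50060, a secreted protein of the CAP family, to which the pathogenesis-related PR-1 belongs, read 124 and 112 at 0.25 h, 97.3 and 97.1 at 0.5 h and 62.1 and 53.2 at 1 h, against 50.5 and 28.3 at 24 h. Its log2 change was 1.01 ± 0.15 (SE, adjusted p = 0.00345). AT2G37540, a dehydrogenase with a Rossmann fold, had 59.5 to 98.7 in the first hour and 44.9 and 34.9 at 24 h (0.85 ± 0.15, SE, adjusted p = 0.0181). In both, the early arrays lay above both 24 h arrays. Neither was called without 24 h replicate 2, at 0.68 in AT1G50060 (adjusted p = 0.153) and 0.70 in AT2G37540 (adjusted p = 0.27), while without replicate 1 they were called at 1.33 and 0.99. AT5G55050, a GDSL-type lipase, falls outside the rule for named genes because 0.5 h replicate 1, at 61.8, lay below 24 h replicate 1, at 62.4; it was chosen after its values were seen. Its other early signals were 65.7 to 131, and its change was 0.95 ± 0.19 (SE, adjusted p = 0.0382). It was 1.34 without 24 h replicate 1 and 0.55, not called (adjusted p = 0.588), without replicate 2.

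For a pair of genes the 24 h roots were low and the first hour was like the hours after it. AT1G27620, an acyltransferase of the HXXXD family, read 14.9 to 30.1 on the 6 early arrays, against 4.77 and 4.57 at 24 h, and 24.2 to 45.5 at 3, 6 and 12 h. These are weak signals, and the log2 change of 1.12 ± 0.15 (SE, adjusted p = 0.00103) understates the ratio because of the offset. The mean of 3, 6 and 12 h was also higher than 24 h, by 1.53 (adjusted p = 1.55e-06). AT2G07739 read 61.1 to 127 in the first hour, against 20.6 and 38.6 at 24 h, and 65.3 to 142 at the times between. Its change was 1.24 ± 0.21 (SE, adjusted p = 0.00948), and without 24 h replicate 1 it was 0.91 and not called. The locus lies in the stretch of mitochondrial DNA inserted in chromosome 2, and its probe set is of a type that reads more than 1 transcript; which copy it reads was not tested.

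The change with the lowest adjusted p belonged to the probe set 262427_s_at, which has no single gene here. It read 977 and 841 at 0.25 h, 780 and 818 at 0.5 h and 366 and 385 at 1 h, against 207 and 266 at 24 h, a log2 change of 1.43 ± 0.14 (SE, adjusted p = 3.6e-05). Its early arrays were all above both 24 h arrays, with the same step down between 0.5 and 1 h as in the lectins. The probe set 261480_at was weak throughout, with 12.5 to 17.9 in the first hour and 1.72 and 3.1 at 24 h.

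Genes of the organelle genomes were among the transcripts called lower. Of the 7 lower probe sets with 1 gene, 4 are genes of the plastid genome and 1 of the mitochondrial genome. The ATP synthase subunit gene atpE read 1086 and 848 at 0.25 h, 652 and 498 at 0.5 h and 910 and 871 at 1 h, against 1387 and 1167 at 24 h. The protease subunit gene clpP read 753 and 594, 450 and 390, and 570 and 458 at these times, against 894 and 784. The ribosomal protein gene rpl14 read 162 and 212, 120 and 128, and 152 and 164, against 267 and 246. In all 3 every early array lay below both 24 h arrays, and the lowest pair was that of 0.5 h. The log2 changes were -0.68 ± 0.14 (SE, adjusted p = 0.036) for atpE, -0.67 ± 0.12 (SE, adjusted p = 0.0171) for clpP and -0.70 ± 0.14 (SE, adjusted p = 0.0452) for rpl14. The other 2, named after their values were seen because their 0.25 h arrays overlapped with 24 h, were rpoC1, a subunit of the plastid RNA polymerase (-0.63, adjusted p = 0.0452), and the mitochondrial ccb452, of cytochrome c maturation (-0.66, adjusted p = 0.0496). The probe set of ccb452 is of the type that reads more than 1 transcript. Of these 5 genes none was called without 24 h replicate 1, with changes from -0.64 to -0.50, and without replicate 2 only clpP was, at -0.76 (adjusted p = 0.0454).

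Over the whole plastid genome the shift was smaller and varied with time. Of 69 plastid probe sets, 4 were called lower and none higher, 54 had negative changes, 11 had every early array below both 24 h arrays, and the median was -0.27, against -0.02 over all probe sets. Over all 16263 probe sets, 0.0676% were called lower and 0.123% higher, 9049 had negative changes and 5.93% lay wholly below. By array, the median difference from the 24 h mean was 0.11 and -0.19 at 0.25 h, -0.54 and -0.69 at 0.5 h, -0.28 and -0.33 at 1 h, and -0.08 and 0.08 at 24 h. Every early array but 0.25 h replicate 1 lay below both 24 h arrays. The 16 mitochondrial probe sets tested, of 23, had a median of -0.22, with 1 called lower and 12 negative. Both sets had per-array medians from -0.48 to -0.27 at 3 h and from 0.05 to 0.32 at 12 h. Nuclear photosynthesis genes gave negative values too: all 5 measured members were below 0 in roots, with a median of -0.30, and none was called, though 1 was called lower without 24 h replicate 1. Their summed signal ran from 325 to 566 in the first hour and was 437 and 591 at 24 h, against 20143 to 28654 in shoots, and none was at 0. The part of green tissue in the plastid result was not tested. In bulk roots, fewer cells or plastids of a type and less RNA in each cannot be told apart.

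**Figure D2:**
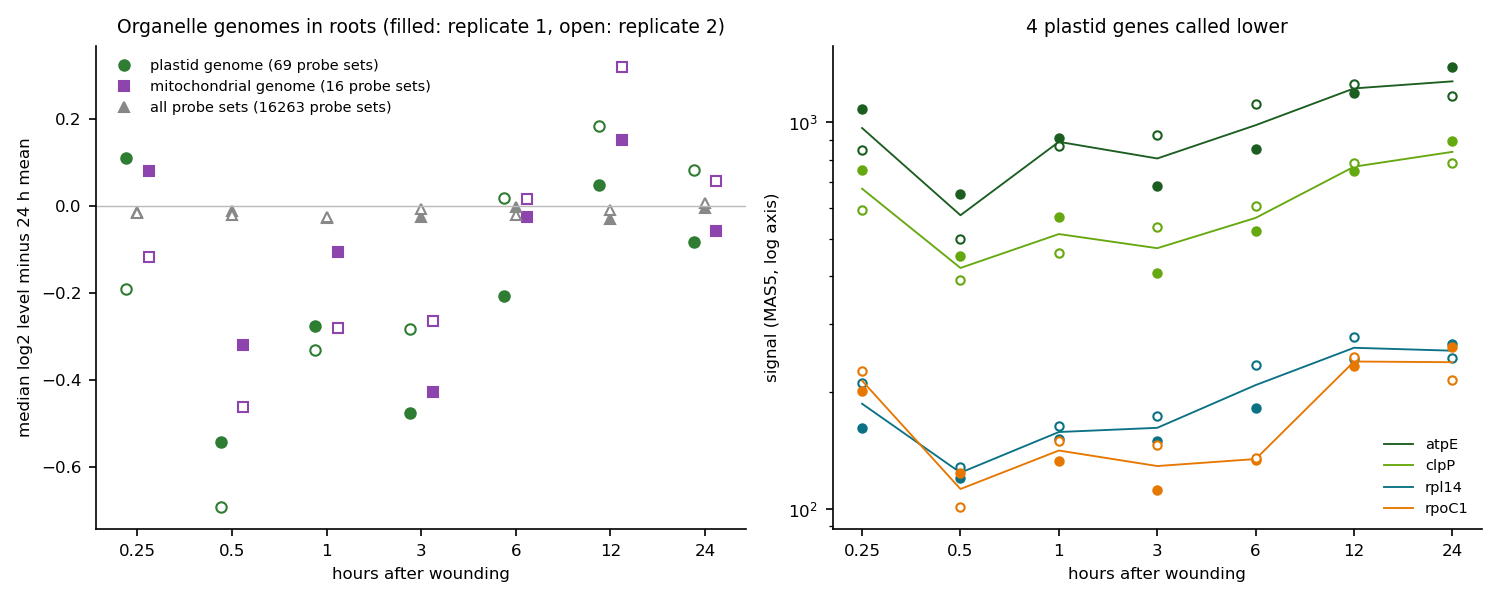
Left, the median log2 level of plastid, mitochondrial and all probe sets on each root array, minus the mean of the 24 h arrays; right, the signal (log axis) of 4 plastid genes called lower, with lines through the means of 2 arrays. Plastid medians are lowest at 0.5 h, at -0.54 and -0.69, while the medians of all probe sets stay near 0.

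The plastid result was uneven between the 24 h arrays. On 24 h replicate 1, 12 plastid probe sets were at least 2-fold below replicate 2, and all 12 were there at their lowest of the 14 root arrays. The psbB transcript of photosystem II read 12.2 and 118 at 24 h and 84.7 to 109 in the first hour, and petN of the cytochrome b6f complex read 8.25 and 65.8 at 24 h and 35.5 to 72.0 in the first hour. Of these 12, 11 had positive pooled changes; a low signal on a 24 h array by itself raises that change, so the sign follows from how the 12 were picked. Without 24 h replicate 1 the plastid median was -0.45 with none called, and without replicate 2 it was -0.30, with 1 lower and 4 higher.

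The nuclear genes called lower were OCT1 and AT4G39190. OCT1, a plasma membrane carnitine transporter, read 20.8 and 29.4 at 0.25 h, 16.7 and 12.8 at 0.5 h and 12.1 and 20.6 at 1 h, against 33.3 and 45.6 at 24 h (-0.79 ± 0.15, SE, adjusted p = 0.0345). At 6 and 12 h it read 0.498 to 0.943, and the mean of 3, 6 and 12 h was lower than 24 h by a log2 value of -1.70 (adjusted p = 6.6e-07). AT4G39190, a gene whose role is not known here, was nearer to its 24 h level at 1 h, with 44.0 and 47.8 at 0.25 h and 74.7 and 84.8 at 1 h, against 103 and 87.9 at 24 h (-0.59 ± 0.12, SE, adjusted p = 0.0452). Neither overlapped with the 24 h arrays. OCT1 gave -0.61 and was not called without 24 h replicate 2 (adjusted p = 0.433). AT4G39190 was not called whichever 24 h array was left out, at -0.49 without replicate 1 (adjusted p = 0.198) and -0.69 without replicate 2 (adjusted p = 0.0919), and it stayed called in 5 of 19 alternatives. The probe set 244940_at, with no gene name here, was lower with 280 to 688 in the first hour and 780 and 803 at 24 h (-0.83 ± 0.12, SE, adjusted p = 0.00173).

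The 3 early times also differed among themselves. A moderated F-test across 0.25, 0.5 and 1 h called 78 probe sets (0.48%), 46 of them higher at 1 h than at 0.25 h and 32 lower, and 10 were also among the 31. The F-test count was 28 without 0.25 h replicate 1 and 151 without 24 h replicate 1. The F-test does not use the 24 h means, so a 24 h array acts on the number called only through the shared spread estimate. In 61 of the 78 the 24 h mean lay between the lowest and highest early mean. The F-test picks probe sets whose early means lie far apart, so this count was favoured by the choice. The share over all probe sets was not counted. AT5G22555, of unknown role, rose through the hour, with 134 and 164 at 0.25 h, 331 and 263 at 0.5 h and 421 and 394 at 1 h, and 251 and 232 at 24 h (1 h over 0.25 h: log2 1.39 ± 0.14, SE; F-test adjusted p = 0.000158). AT2G47950, also of unknown role, went the same way, with 29.3 and 26.8 at 0.25 h and 123 and 121 at 1 h, and 110 and 60.4 at 24 h. AT1G29670, a GDSL-type lipase, had 29.0 and 45.2 at 0.25 h and 91.9 and 98 at 1 h, and 77.1 and 62.3 at 24 h (F-test adjusted p = 0.00213 for this gene and for AT2G47950). In these 3 genes the 24 h level lay within the range of the hour, and pooling left changes of 0.12, -0.36 and -0.04, none called. Without 24 h replicate 1 those of AT2G47950 and AT1G29670 were 0.02 and 0.10, and without replicate 2 they were -0.75 and -0.17.

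EXPB2, a beta-expansin that loosens cell walls, peaked at 0.5 h. It read 56.3 and 65.2 at 0.25 h, 275 and 183 at 0.5 h and 84.0 and 64.8 at 1 h, and 65.2 and 73.7 at 24 h (F-test adjusted p = 0.000528). The 0.5 h arrays lay apart from all others. AT2G07707, from the same mitochondrial insertion in chromosome 2 and annotated as a subunit of the mitochondrial ATP synthase, dipped at 0.5 h, with 135 and 109 at 0.25 h, 49.1 and 47.0 at 0.5 h and 86.7 and 59.4 at 1 h, and 98.9 and 114 at 24 h (F-test adjusted p = 0.00247). Its probe set, too, is of a type that reads more than 1 transcript, and which copy it reads was not tested. AT3G19430, described above, fell over the hour, by a log2 value of -1.64 ± 0.20 (SE, F-test adjusted p = 0.000736).

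**Figure D3:**
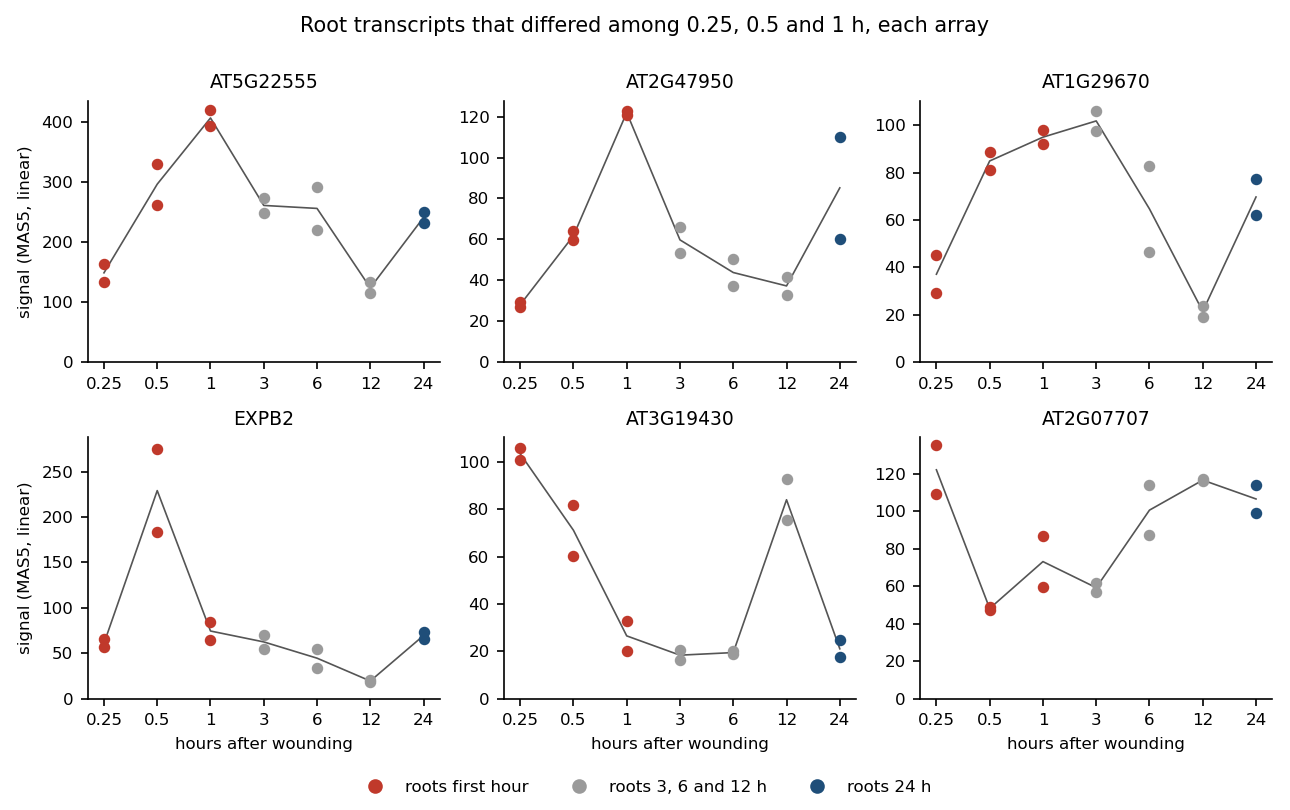
Signal (linear, from 0) on each root array over the 7 times of the 6 genes with the lowest p in the F-test among 0.25, 0.5 and 1 h; the line joins the means of 2 arrays. AT5G22555, AT2G47950 and AT1G29670 climb over the hour, EXPB2 peaks at 0.5 h at 275 and 183, and AT3G19430 and AT2G07707 stand lower at 0.5 and 1 h than at 0.25 h.

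The genes known for a fast answer to wounding did not pass in roots. Of the 34 genes listed for rapid wound and touch signalling 8 were measured under a gene name here, none was called, and their median change was 0.14. ZAT10, a zinc finger repressor of the fast stress response, read 243 to 396 in the first hour and 389 and 196 at 24 h, a change of 0.16 (95% interval -0.29 to 0.62). CML38, a calmodulin-like calcium sensor, read 84.0 to 464 in the first hour and 257 and 21.7 at 24 h, a change of 0.76 with a wide interval (-0.62 to 2.13). In both genes the 24 h arrays lay on either side of most early arrays. The other 6 were the transcription factors WRKY53 (0.04), WRKY6 (0.01) and ORA47 (0.37) and the ubiquitin ligases PUB22 (0.25), PUB23 (0.11) and PUB24 (-0.12). Without 24 h replicate 1 ORA47 gave 0.74 and WRKY6 -0.11, and without replicate 2 they gave 0.000311 and 0.13. Of the 8 members, 6 were higher on 24 h replicate 1 than on replicate 2. Without replicate 1 the median was 0.33 and without replicate 2 it was 0.01, with none called either way; ZAT10 then gave 0.64 and -0.31, and CML38 2.28 and -0.77.

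The same comparison in shoots gave 5466 calls (33.6%), 13.8% higher and 19.8% lower, and the difference between the organs was itself tested. That difference, roots minus shoots, was called in 2639 probe sets (16.2%), 1313 with roots above shoots (8.07%) and 1326 below (8.15%). Of the 8 rapid genes, 7 were higher in the first hour in shoots, with a median of 2.13, and the difference was called in 6, all with roots below. ZAT10 changed by 0.16 in roots and 3.77 in shoots, a difference of -3.61, and CML38 by 0.76 and 3.98, a difference of -3.22. The difference in CML38 was -1.70 and not called without 24 h replicate 1 (adjusted p = 0.189), which leaves 5 of the 8, and without replicate 2 it was -4.74. The differences furthest below 0 were those of AT1G15010 (-4.60 ± 0.38), the calmodulin-like AT3G01830 (-4.17 ± 0.37), AT2G27080 of the NDR1/HIN1-like family (-4.05 ± 0.37), the efflux carrier AT5G52050 (-3.96 ± 0.56) and the xyloglucan hydrolase gene XTH18 (-3.87 ± 0.52, all SE, adjusted p from 1.05e-07 to 9.11e-05). None of these 5 was called in roots, where their changes lay between -0.32 and 0.73. The first 4 differed between the root arrays of 24 h, AT3G01830 with 50.7 and 10.1 against 9.13 to 29.8 in the first hour, and AT2G27080 with 200 and 63.0 against 95.5 to 217. Without 24 h replicate 1 AT2G27080 changed by 1.02 in roots, and its difference from shoots was -3.30. The shoot arrays of 24 h had actin ratios of 4.15 and 6.17, against 2.54 to 3.53 in shoots of the first hour, and the part of RNA quality in the shoot changes was not tested.

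**Figure D4:**
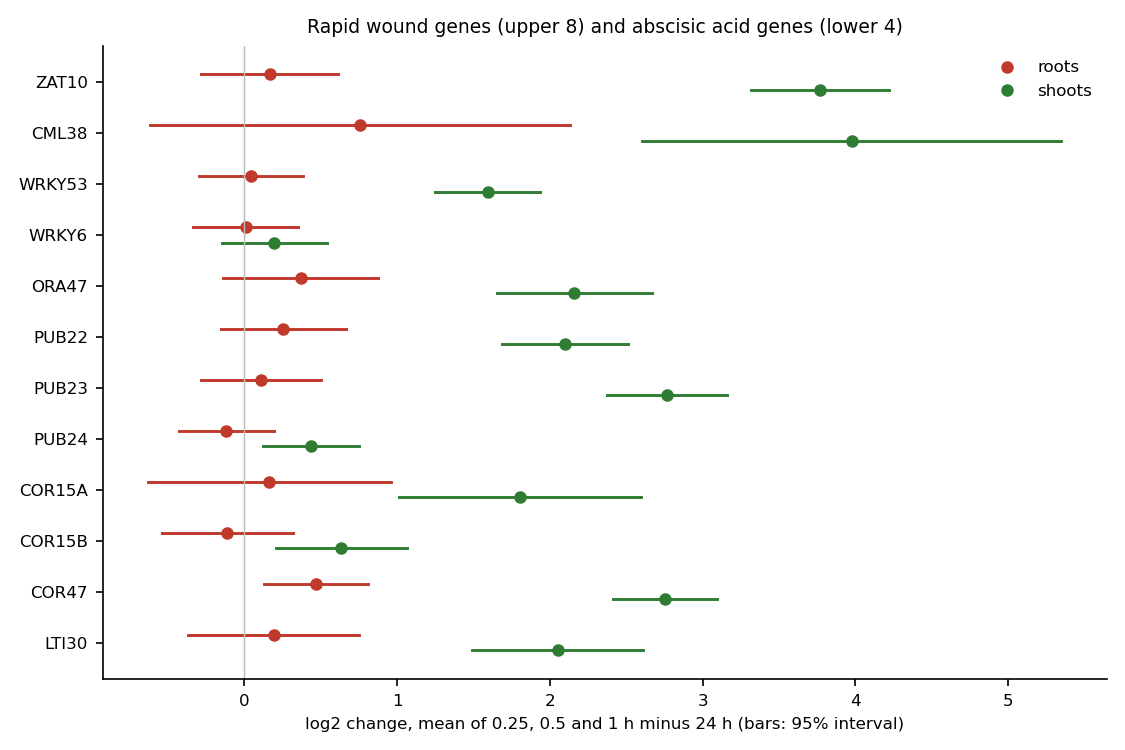
Log2 change, first hour minus 24 h, of the 8 rapid wound genes and 4 abscisic acid genes, for roots (upper point of each pair) and shoots, with 95% intervals from the fit. The root points lie between -0.12 and 0.76 and the shoot points between 0.20 and 3.98.

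The 5 largest differences with roots above shoots were in 2 lipid transfer family genes, AT4G12490 (3.74 ± 0.87) and AT4G12500 (2.61 ± 0.45), the peroxidase AT2G37130 (2.77 ± 0.48), the defensin PDF1.4 (2.57 ± 0.53) and AT1G60590 of the pectin lyase family (2.18 ± 0.24, all SE, adjusted p from 1.21e-06 to 0.00842). Their changes in roots ran from -0.93 to 0.23 and none was called, while in shoots all 5 were lower in the first hour, by log2 values from -3.98 to -2.54. In 4 of the 5 the shoot arrays of 0.25 h stood far apart, with 3.42 and 193 in AT4G12490, 0.799 and 23.9 in AT4G12500, 8.76 and 60.8 in AT2G37130 and 15.4 and 73.6 in PDF1.4. That pair correlated at 0.967, and no shoot array was left out in any fit of the difference between organs. AT4G12490 and AT4G12500 are neighbours of like sequence and may share signal.

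For 12 of the 13 genes named by rule in the pooled root comparison the difference from shoots was also called, AT4G39190 being the exception (-0.33, adjusted p = 0.205). Of the called genes outside that rule, AT5G55050 did not pass either (0.51, adjusted p = 0.212), while AT3G19430, rpoC1 and ccb452 did. Over all probe sets the difference was called in 16.2%. The difference contains the same root change by which the 13 were picked, so the count was favoured by that choice and supports nothing. Of the 12, 4 were lost when a 24 h root array was left out: AT1G52060 (0.84, adjusted p = 0.159), AT5G60530 (adjusted p = 0.0512) and OCT1 (-0.55, adjusted p = 0.168) without replicate 2, and atpE (-0.53, adjusted p = 0.14) without replicate 1. The lectin AT1G52050 changed by 1.30 in roots and -0.17 in shoots (difference 1.47 ± 0.28, SE, adjusted p = 0.00101), and AT5G54370 by 1.15 and -0.32 (difference 1.47 ± 0.27, SE, adjusted p = 0.000585). The lectins were near the floor in shoots, where AT1G52050 read 5.03 to 15.2. rpl14 changed by -0.70 in roots and 0.46 in shoots (difference -1.16 ± 0.20, SE, adjusted p = 0.00036).

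Jasmonate genes gave no call in roots. The synthesis genes measured were OPCL1, a ligase that activates the precursor (-0.01, 95% interval -0.46 to 0.43), and AIM1 of beta-oxidation (-0.04). OPCL1 gave 0.55 and AIM1 -0.23 without 24 h replicate 1, and they gave -0.58 and 0.15 without replicate 2, none called. In shoots OPCL1 changed by 2.81, and the difference of -2.83 was called. The 4 turnover genes, the hydroxylases JOX2, JOX3 and JOX4 and the methyltransferase JMT, were all negative, with a median of -0.34 and an interval as wide as -1.75 to 0.52 for JOX3. Their median was -0.06 without 24 h replicate 1, with 2 of the 4 negative, so the common sign rested on that array. Of the 3 defence proteins the median was 0.02 (0.10 without 24 h replicate 1 and -0.18 without replicate 2), with PDF1.2 between -1.72 and 1.75 at 95%. No member of the JAZ repressor list was measured under a gene name here.

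Hormone and stress lists were also without a call, and of the members given here only ICL came near. The 4 abscisic acid genes had a median of 0.18 in roots, which was 0.61 without 24 h replicate 1 and -0.18 without replicate 2. All 4 were higher in shoots and 3 of the differences were called, with roots below. The dehydrin COR47 read 978 to 1183 in the first hour and 1085 and 557 at 24 h (0.47, 95% interval 0.13 to 0.81, not called). It gave 0.94 without 24 h replicate 1 and -0.01 without replicate 2. The 5 auxin genes had a median of 0.32. GH3.3, which conjugates auxin, gave 0.91 (95% interval 0.44 to 1.38, adjusted p = 0.132), with 324 to 640 in the first hour and 321 and 200 at 24 h, and LBD29, a regulator of lateral roots, gave 0.83 (adjusted p = 0.225). Without 24 h replicate 1 these genes gave 1.24 and 1.30, and without replicate 2 they gave 0.59 and 0.37. HRA1, a low oxygen regulator, gave 1.18 (95% interval 0.29 to 2.07, adjusted p = 0.42), with 64.8 to 380 in the first hour and 87.1 and 32.6 at 24 h. ICL, the isocitrate lyase of the glyoxylate cycle, gave -0.90 (adjusted p = 0.0583), with 20.6 to 58.6 in the first hour and 111 and 70.7 at 24 h. It gave -1.19 without 24 h replicate 2 and -0.61 without replicate 1.

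The 26 lists hold 427 genes, of which 69 probe sets in 18 lists were tested. Of these 69, 2 were called, both lectins, and over all probe sets 31 of 16263 were called (0.191%). Beside those given, medians were 0.24 for low oxygen (3 members), -0.07 for carbon starvation and reserve mobilisation (6), 0.18 for iron acquisition (4), -0.26 for the circadian clock (3), -0.30 for heat shock (3), 0.03 for phenylpropanoids (2), 0.12 for root hairs (2), 0.14 for cell cycle and DNA replication (3), -0.01 for cytokinin response (2) and 0.09 for reference genes (3). Several of these turned sign with 1 array. The medians without 24 h replicate 1 were 0.07 for the clock, 0.04 for heat shock, -0.05 for iron, -0.30 for carbon starvation and -0.15 for phenylpropanoids, and without replicate 2 they were -0.59, -0.64, 0.39, 0.07 and 0.21 in the same order. For cytokinin they were -0.12 and 0.11. No member of ethylene synthesis, tryptophan with camalexin and indole glucosinolate, suberin and Casparian strip, nitrogen uptake and assimilation, phosphate starvation, sulfate or aquaporins was tested under a gene name.

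**Figure D5:**
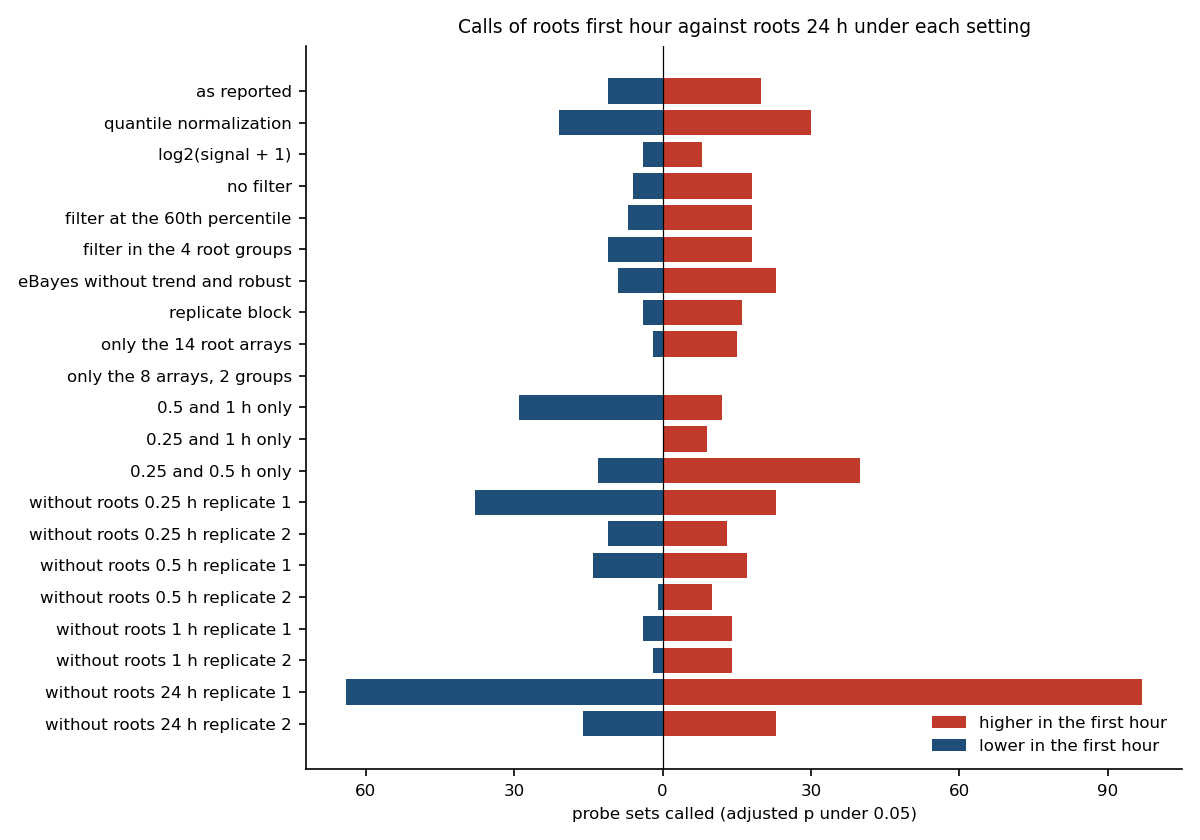
Number of probe sets called higher (right) and lower (left) in roots of the first hour against 24 h under each setting of the fit. The count is 31 as reported, 0 with the 8 arrays alone and 161 without 24 h replicate 1.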

How the data were processed

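Each deposited table gives an intensity per probe set on a linear scale, computed by the authors with MAS5 per the submitters' processing notes (version not given in the sources used here). All arrays had nearly the same trimmed mean, so the values were used as they are. Control probe sets (64 of 22810) were left out, an offset of 10.7 (the 25th percentile of all signals) was added before log2, and the filter asked for a signal over the array's 40th percentile on both replicates in any 1 of the 14 groups, which left 16263. R 4.3.3 and limma 3.58.1 (lmFit, eBayes with trend and robust) fitted 1 mean per tissue and time over all 28 arrays (14 residual degrees of freedom). The pooled contrast is the mean of the 3 early root groups minus roots 24 h. Adjusted p-values are Benjamini-Hochberg over all probe sets kept. Depth has no meaning for arrays; their number limits the precision.

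On simulated data of this contrast with 16263 probe sets the fit found 40 of 100 true shifts of 0.5 on the log2 scale and 95 of 100 true shifts of 1, and made 4 false calls. The simulated noise was normal and independent, with each probe set's spread averaged over the 14 groups and equal on all arrays. The wider gap of the 24 h root pair (255 probe sets at least 2-fold apart) was not simulated, so these rates need not hold for the real contrast. Named genes were, among probe sets with 1 gene, the 14 largest changes in each direction among calls with no overlap (7 higher and 5 lower met this), called list members, the 6 lowest p of the F-test and the 5 largest organ differences in each direction. The comparison, the lists and this rule were chosen with earlier results of these data known; the root cap family and the organelle sets were gathered after seeing values. Genes come from the platform annotation, with 13513 probe sets of 1 gene, 503 of several and 8794 unnamed here; 13436 matched the TAIR10.1 RefSeq table. Same-numbered replicates deviated together little and not in a common direction (correlations -0.116 to 0.19, the highest between roots 0.5 h and 24 h). Numbers were therefore not taken to pair samples. Alternatives were quantile normalization, log2(signal + 1), other filters, plain eBayes, the replicate block, fewer arrays or times and each root array left out. No build is named, so coordinates are not given.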

Additional observations from a re-analysis of the deposited data

Results flagged for a closer look

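For 12 genes named in the root comparison the change differed from that in shoots by the test of the difference, roots minus shoots. The difference contains the root change by which these genes were picked, so their passing was favoured by that choice. On the log2 scale the differences above 0 were 1.47 in AT1G52050, 1.44 in AT1G52060, 1.37 in AT2G07739, 1.47 in AT5G54370, 1.17 in AT5G60530, 1.25 in AT1G27620, 0.99 in AT1G50060 and 1.12 in AT2G37540. Those below 0 were -0.73 in OCT1, -1.16 in rpl14, -0.65 in atpE and -0.79 in clpP. Those of AT1G52060, AT5G60530 and OCT1 were not called without 24 h root replicate 2, nor that of atpE without replicate 1. The 10 extreme organ differences were 3.74 in AT4G12490, 2.77 in AT2G37130, 2.61 in AT4G12500, 2.57 in PDF1.4 and 2.18 in AT1G60590, with roots above, and -4.60 in AT1G15010, -4.17 in AT3G01830, -4.05 in AT2G27080, -3.96 in AT5G52050 and -3.87 in XTH18, with roots below. In each of these 10 the root change was not called. The 6 early root arrays of 13 genes were examined for a value far from the others, and none passed the limit, where chance marks about 1 in 20 groups. That limit treats the 6 arrays as alike, but they are 3 times of 2 arrays each, and some genes differed between the times. The limit and its rate therefore need not hold here, and nothing is drawn from the outcome.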

How the results depend on the processing

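The pooled count of 31 moved by over 1.5 times under quantile normalization (51), log2(signal + 1) (12), the 14 root arrays alone (17), the 8 arrays alone (0, with 1209 at an unadjusted p under 0.05), 0.25 and 1 h only (9) and 0.25 and 0.5 h only (53). Leaving out 1 root array gave 11 to 161 calls; the extremes came without 0.5 h replicate 2 and without 24 h replicate 1. Without 0.25 h replicate 1 it was 61, without 1 h replicate 1 it was 18 and without 1 h replicate 2 it was 16. With the replicate number as a block, which the check of the replicates does not bear out as a pairing, it was 20. Calls were 24 with no filter, 25 with the filter at the 60th percentile, 29 with the filter in root groups, 32 with plain eBayes and 41 with 0.5 and 1 h only. The split of higher and lower calls moved with the times pooled, from 12 and 29 with 0.5 and 1 h to 9 and 0 with 0.25 and 1 h. The F-test count of 78 became 120 under quantile normalization, 45 with the 14 root arrays and 28 to 151 with 1 array left out, and 76 under the block. The lowest of these came without 0.25 h replicate 1 and the highest without 24 h replicate 1; without 24 h replicate 2 it was 144, and without 1 h replicate 1 and 2 it was 48 and 41. The count of differences between organs stayed within 1.5 times of 2639 (1838 to 2488 with 1 root array left out, 2612 under the block). Over all alternatives run, the 615 values of the 31 probe sets kept their direction, and 371 were still called. Of the 31, 3 were called under every alternative except the 8 arrays alone: AT1G27620, 261480_at and 262427_s_at. The F-test does not use the 24 h means, so leaving out a 24 h array moved its count only through the shared spread estimate. Apart from that, and from fewer arrays or times in some fits, the cause of these shifts was not tested. The 2 arrays at 24 h limit every value here, and most members of the wound lists were not measured under a gene name.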

Other observations

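Some calls of the F-test among early root times fall in neighbouring genes. They were chosen after their values were seen and are given as values. AT2G30660 and AT2G30670 stand side by side on chromosome 2, and AT5G52670 and AT5G52710 lie close together on chromosome 5. All 4 were called by the F-test, with adjusted p from 0.0033 to 0.0198, and their log2 values of 1 h over 0.25 h were 1.67, 1.37, 1.63 and 1.73. S8H, the scopoletin hydroxylase of the iron deficiency response, went down, with 137 and 110 at 0.25 h, 60.2 and 84.6 at 0.5 h and 44.2 and 37.2 at 1 h, and 28.5 and 68.7 at 24 h (F-test adjusted p = 0.0447).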
